A study of Mus musculus with 12 samples.

Results

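The 92 autosomal protein-coding mouse genes whose names start with Kcn encode the pore-forming and auxiliary subunits of potassium channels. Their DNA methylation was read from CpG rows, where a row is 1 cytosine of a CpG on 1 strand. A row was taken when it lay inside a Kcn gene or up to 2000 bp upstream of it (GENCODE vM21 basic, mm10) and had at least 10 reads in at least 9 of the 12 libraries. This gave 10281 of the 1667382 autosomal rows with that coverage, in 88 of the 92 genes. Kcne2, Kcnj1, Kcnmb3 and Kcnrg had no such row. Rows upstream of a gene or within 1000 bp of any of its annotated transcript starts were called promoter rows (7472), and all other rows inside a gene were called body rows (2809). All 12 libraries covered 5024 promoter rows and 1062 body rows, and 1032 rows were at the limit of exactly 9 libraries.

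The libraries were made by reduced representation bisulfite sequencing (RRBS), which cuts DNA at CCGG and so gathers reads in CpG-rich sequence, from a mixture of hippocampus and cortex of mice 11 months old. Wild-type (Wt) mice gave 4 libraries, labelled 3 females and 1 male, and Tg2576 (Tg) mice gave 8, labelled 4 females and 4 males. Tg2576 mice carry a human APP transgene with the Swedish double mutation of familial Alzheimer's disease, driven by a prion protein promoter, and Wt mice do not. Each library came from 1 animal, and a level is the percentage of reads at a cytosine that were read as methylated. The question was whether methylation of these genes differed between Tg and Wt mice.

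Potassium channels let K+ leave the cell, which brings the membrane back to rest after an action potential and sets how easily a neuron fires. Voltage-gated (Kv) subunits open on depolarization, calcium-activated ones follow calcium entry, inward rectifiers and K2P channels hold the resting potential, and auxiliary subunits change the gating or the traffic of the pores. Many of these genes are transcribed in neurons or glia, and others mainly in heart, kidney, gut or sensory organs. In mammals, CpG-rich promoters usually lack methylation in most tissues, while CpG-poor promoters of tissue-specific genes and the bodies of genes often carry it.

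The contrast between both kinds of promoter can be seen in the 150 bases upstream of 2 auxiliary subunit genes, shown because they stand near the ends of the promoter levels given below (RefSeq GRCm38.p6, each written 5′ to 3′ on its gene's strand, with the CpGs covered by at least 1 row in capitals).
Kcne1, chr16:92359469-92359618, minus strand: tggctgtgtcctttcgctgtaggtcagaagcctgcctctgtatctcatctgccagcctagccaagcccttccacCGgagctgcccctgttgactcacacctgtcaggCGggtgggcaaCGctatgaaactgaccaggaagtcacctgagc
Kcnmb4, chr10:116473879-116474028, minus strand: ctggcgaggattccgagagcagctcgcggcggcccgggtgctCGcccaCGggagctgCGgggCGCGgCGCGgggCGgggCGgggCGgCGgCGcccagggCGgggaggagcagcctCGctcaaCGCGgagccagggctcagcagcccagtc
The Kcne1 window holds 4 CpGs, 3 of them covered, and the Kcnmb4 window holds 22, 16 of them covered. Over rows covered in all 12 libraries, the mean promoter level was 38.2% ± 12.5 (SD, n = 12) in Kcne1, a partner of Kcnq1 in the heart and inner ear. In Kcnmb4, a neuronal regulator of the BK channel, it was 0.605% ± 0.380 (SD, n = 12).

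The reads of a library, summed over its rows, numbered from 33619981 to 131446104, and the median Kcn row had 20 to 56 reads. One library went against its label. On chromosome X, where an inactive copy raises the level in females, the library labelled Wt male had a mean level of 19.9%, near the 20.7 to 23.0% of the 7 female libraries and far from the 5.50 to 5.67% of the Tg males. It is called the library labelled Wt male below, and the tests of named regions and the counts of called rows are also given without it. No pair of libraries held equal counts at more than 4.07% of rows. Promoters of 4 neuronal marker genes (Rbfox3, Snap25, Syt1, Tubb3) had 1.62% ± 0.823 in Wt and 1.37% ± 0.321 in Tg (SD over 4 and 8 libraries), and those of oligodendrocyte markers, of which 2 of 4 had rows, 1.54% ± 1.02 and 0.711% ± 0.268, with overlapping ranges in both. Bodies of the 3 neuronal genes with body rows had 22.2% ± 4.60 in Wt and 22.5% ± 2.80 in Tg, over 367 rows and with overlapping ranges. Bodies of the 2 oligodendrocyte genes with rows had 52.1% ± 13.7 in Wt and 39.1% ± 11.0 in Tg, over 13 rows and with overlapping ranges. These levels do not measure cell numbers, and the part of cell composition in the results below was not tested.

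Kcn promoters were almost free of methylation and Kcn bodies were not. The median promoter row stood at 0.856% and 95.8% of promoter rows were under 10%. Over promoter rows of all protein-coding genes the same values were 0.639% and 96.8%. The median body row stood at 32.7%, with 36.2% of rows under 10% and 13.2% over 90%. Body rows of all genes had a median of 28.7%, with 37.9% under 10% and 15.5% over 90%. Levels rose with distance from the start, as the plot by distance shows. Among rows up to 500 bp upstream, 98.5% were under 10%. Downstream of the nearest start of the same gene, the median was 1.47% at over 1000 and up to 2000 bp, 14% up to 5000 bp, 40.5% up to 20000 bp and 56.6% farther in.

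**Figure D1:**
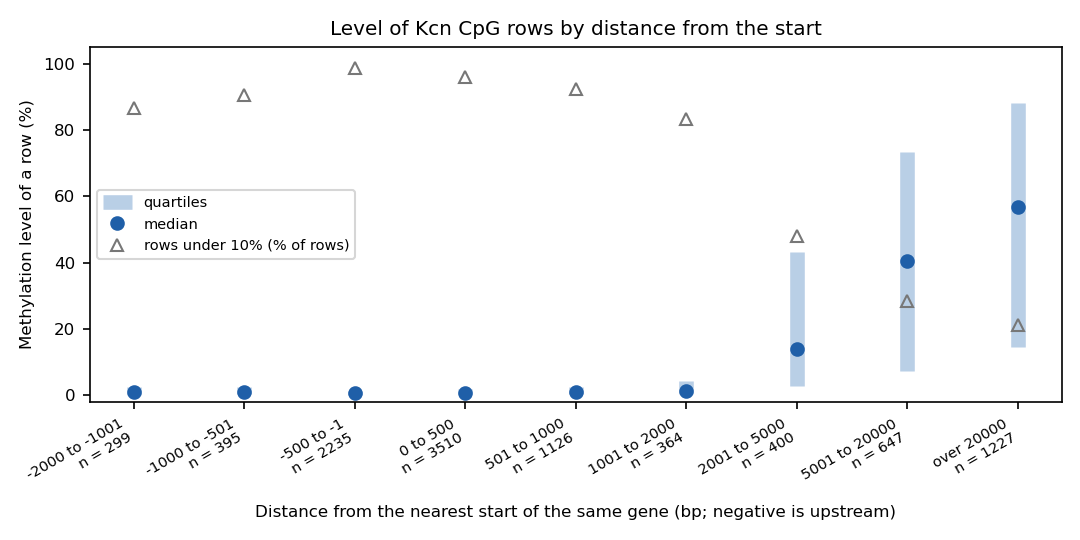
Methylation level (%) of Kcn CpG rows in bins of distance (bp) from the nearest start of the same gene, with medians as filled circles, quartiles as bars and, as triangles, the percentage of rows under 10%. The median stays at or under 1.47% from 2000 bp upstream to 2000 bp downstream and reaches 56.6% beyond 20000 bp.

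Inside the bodies, levels followed local CpG density. Of body rows with at least 20 CpGs within 100 bp on either side, 96.8% were under 10%, against 7.72% of those with 0 to 4 CpGs. Medians were 46.7% in introns, 9.58% in coding exons and 1.62% in untranslated regions, whose median densities were 6, 15 and 13 CpGs. Starts of other genes also lie inside Kcn genes. The 336 body rows within 1000 bp of such a start had a median of 3.43%, and the other 2473 a median of 39.6%.

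By gene, with the mean taken over all of a gene's rows, the median promoter level was 1.87% over the 77 genes with at least 3 promoter rows, and 13 of them (16.9%) stood at 10% or more. Over all protein-coding genes the median was 1.03%, with 11.0% of genes at 10% or more. The median body level was 62.3% over 74 Kcn genes, and 59.3% over all genes. A body stood above its promoter in 64 of 66 genes with both, and the level of one said little of the other (Spearman rho across these genes 0.0684, a description, since genes share libraries). Levels of single genes are drawn in the plot by family.

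**Figure D2:**
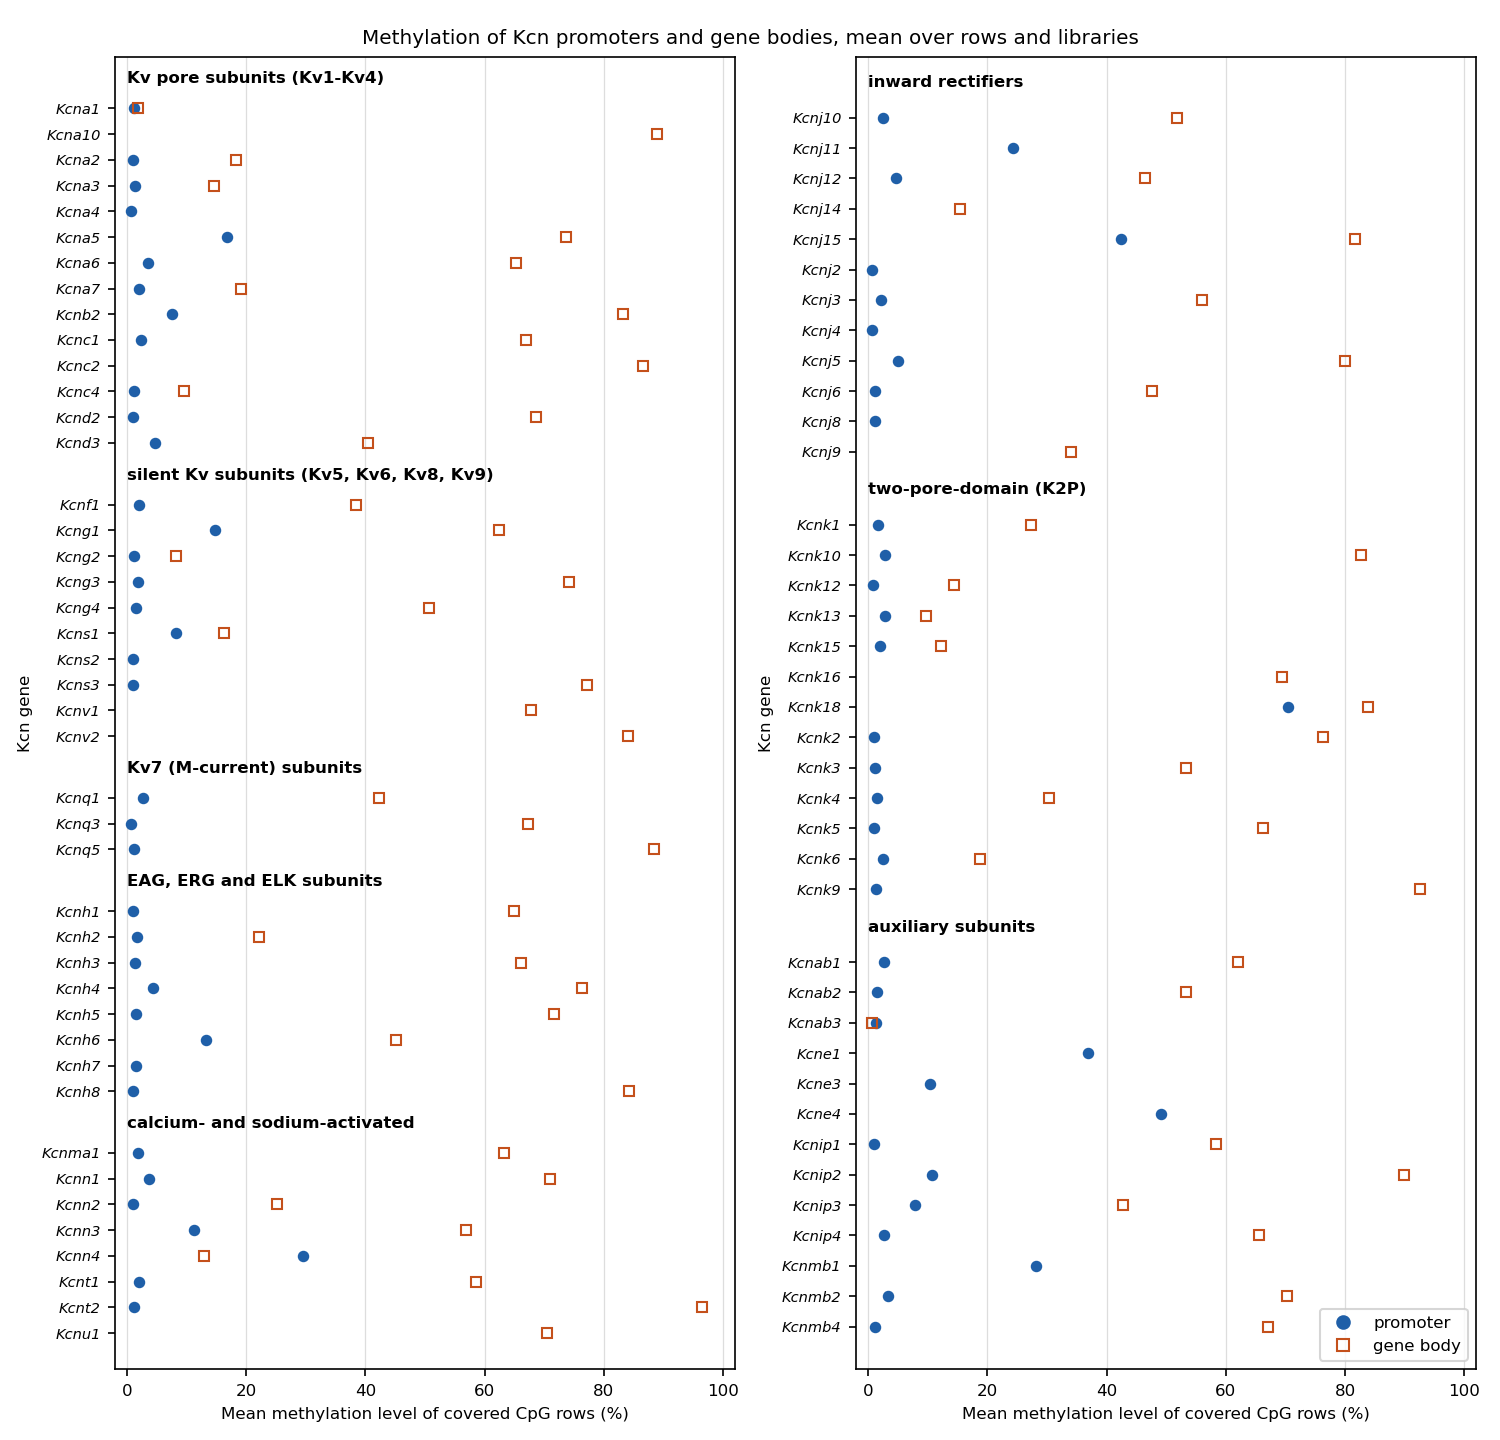
Mean methylation level (%) of the rows of each Kcn gene reported here with at least 3 promoter or body rows, grouped by family, with promoters as filled circles and bodies as open squares. Promoters crowd near 0, while bodies spread from 0.577% in Kcnab3 to 96.4% in Kcnt2.

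The pore subunits of the Kv1 to Kv4 channels had a median promoter level of 1.68% (14 genes) and a median body level of 64.2% (15 genes). Kcna1 and Kcna2, whose channels sit along axons, had 1.21% and 0.928% over their promoter rows. Kcnc1, which lets neurons fire fast, had 2.42%, and Kcnd2, a dendritic A-type subunit, had 0.972%. Kcna6 stood somewhat higher at 3.59%. The exception in this family was Kcna5, best known from atrial muscle, at 16.8%. Bodies differed more, and the body of Kcna1 had 1.79%, against 68.6% in Kcnd2 and 83.2% in Kcnb2. The Kcna1 rows lie in the coding exon, with a median of 14 CpGs within 100 bp on either side.

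Read by library over the 16 Kcna5 promoter rows covered in all 12, the read-weighted level (methylated reads over all reads) was 31.4, 16.0, 26.0 and 38.5% in Wt (females 1 to 3, then the library labelled male). Among Tg libraries the lowest was 22.3%, the median 25.7% and the highest 48.8%. The groups overlapped, and the highest value belonged to 1 Tg library, female 3, while the next stood at 30.2%.

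Subunits of the Kv7 channels had the lowest family median in promoters, 1.23% over 5 genes, and the highest in bodies, 67.2%. Kcnq3 encodes a subunit of the M-current, which damps repetitive firing. Its promoter stood at 0.667% and its body at 67.2%. Over the 4 body rows covered in all 12 libraries the level was 89.4% ± 2.82 (SD, n = 12), among the highest of Kcn bodies.

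The silent Kv subunits, which form channels only with Kv2 subunits, had medians of 1.69% in promoters (8 genes) and 62.5% in bodies (9 genes), and the Kcng1 promoter had 14.8% over all its rows but 7.19% over the 79 complete ones. The EAG, ERG and ELK subunits had 1.51% (8 genes) and 66.1% (7 genes), with Kcnh6 at 13.2% in its promoter. In the 16 Kcnh6 promoter rows covered in all 12 libraries, read-weighted levels were 7.58, 2.84, 3.98 and 9.79% in Wt and from 4.28% through a median of 6.92% to 11.0% in Tg. The ranges overlapped.

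Among calcium- and sodium-activated channels the medians were 2.02% (7 promoters) and 60.9% (8 bodies). Kcnma1, the BK channel pore, had 1.87% and 63.3%. Kcnn2, an SK channel of hippocampal neurons, had 1.07% and 25.2%, and the 44 body rows covered in all 12 libraries stood at 1.31% ± 0.821 (SD, n = 12), with a median of 18.5 CpGs within 100 bp on either side. Kcnn4, whose channel works in blood cells and epithelia, had the highest promoter level of the family, 29.5%, from 3 rows, and Kcnn3 had 11.2%. Kcnu1, a channel of sperm, had no promoter row and a body level of 70.5%.

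Inward rectifiers had the lowest median body level, 49.7% (8 genes), beside a promoter median of 2.32% (10 genes). Kcnj6, a G-protein-gated channel of neurons, and Kcnj10, the main inward rectifier of astrocytes, had promoter levels of 1.08% and 2.56%. Kcnj15, known from kidney, had 42.5% over 6 rows. In its 3 complete rows the Wt libraries read 42.1, 41.5, 36.9 and 48.8%, and the Tg libraries from 13.9% through 34.7% to 59.1%, a wider spread that enclosed the Wt values. Kcnj11, a subunit of the channel closed by ATP, had 24.2% over 23 promoter rows, but only 2 of them were complete, and those stood at 1.77% ± 1.48 (SD, n = 12).

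The K2P channels had medians of 1.5% (12 promoters) and 53.3% (13 bodies), and held the highest promoter level of all Kcn genes, 70.5% over 5 rows of Kcnk18, a channel of sensory ganglia. Kcnk9, which is expressed from the maternal copy in mouse brain, had 1.27% in its promoter over 213 rows. The 4 complete rows of its body, all in a coding exon, had the highest level among bodies with at least 3 complete rows, 93.4% ± 4.13 (SD, n = 12). Kcnk13, a channel of microglia, and Kcnk12 lay at the other end with 0.867% ± 0.489 and 1.85% ± 1.41 over 74 and 26 complete body rows, at median densities of 20 and 24 CpGs within 100 bp. Over all their body rows (125 and 53) they had 9.70% and 14.3%.

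Auxiliary subunits had the highest family median in promoters, 3.38%, and 5 of 13 genes at 10% or more. These were Kcne1, Kcne3 and Kcne4 of the family of small Kcne proteins, Kcnmb1 of smooth muscle BK channels, and Kcnip2, which binds Kv4 pores in heart and brain. Over all their rows they had 36.9, 10.4, 49.1, 28.2 and 10.8%, from 14, 22, 6, 3 and 46 rows. Over complete rows Kcne3 had 2.08% (8 rows) and Kcnip2 9.61% (28 rows), both under 10%. In the 5 complete Kcne1 rows, the Wt libraries read 58.2, 16.1, 27.4 and 22.3%, and the Tg libraries 26.7% at the lowest, 41.7% in the median and 56.5% at the highest. The Wt range enclosed all Tg values. The body of Kcnab3 had the lowest level of all, 0.577% ± 0.520 (SD, n = 12). Its 14 rows lie in an untranslated region within 1000 bp of the start of the antisense gene Kcnab3os.

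Promoter levels also differed by where a gene is known to work. The lists were drawn from textbook knowledge. Of 14 genes known mainly outside the brain, 8 had promoters at 10% or more (Kcna5, Kcne1, Kcne3, Kcne4, Kcnj15, Kcnk18, Kcnmb1, Kcnn4), with a median of 13.6%. Of 41 genes well known in neurons or glia it was 3 (Kcnip2, Kcnj11, Kcnn3), with a median of 1.43%, and of 22 in neither list it was 2 (Kcng1, Kcnh6), with a median of 1.72%. Of these 13 promoters, 8 had at least 3 complete rows, and 4 of the 8 reached 10% over those, 3 of 4 in the outside list (Kcna5, Kcne1, Kcnj15), 0 of 2 in the brain list and 1 of 2 in neither (Kcnh6). The number of CpGs moved with the lists, and the sequence within 500 bp of the start held a median of 22.5 CpGs in the outside list, 56 in the brain list and 45 in the third. Among the 12 promoters with 0 to 24 CpGs, 6 of 7 in the outside list and 0 of 3 in the brain list reached 10%. With 25 to 49 CpGs it was 2 of 5 and 2 of 11, and with 50 or more 0 of 2 and 1 of 27. With so few genes in each class, the part of CpG density in the difference between the lists cannot be told apart from that of tissue.

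Kcnq1 hosts an imprinted region. The antisense transcript Kcnq1ot1 starts inside a Kcnq1 intron (first base chr7:143296549, minus strand) and is made from the paternal copy, and its start is methylated on the maternal copy. The stretch below is the nearest covered by complete rows on both strands (plus strand, 5′ to 3′, covered CpGs in capitals).
Kcnq1 intron, chr7:143295374-143295471: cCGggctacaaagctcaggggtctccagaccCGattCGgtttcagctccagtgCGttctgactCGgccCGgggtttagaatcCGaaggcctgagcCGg
Within 2000 bp of that start lay 33 Kcnq1 rows, and the complete ones lay 938 to 1174 bp downstream of it. The 23 complete rows averaged 23.9% ± 5.43 (SD, n = 12), with single rows from 10.1 to 48.0%, while the other 36 complete Kcnq1 body rows averaged 49.9% ± 4.93. Wt libraries had 27.9, 28.6, 27.1 and 16.7%, and Tg libraries 17.8% at the lowest, 21.4% in the median and 33.8% at the highest. The ranges overlapped, and the lowest value of all was that of the library labelled Wt male. None of the 33 rows was called in either model described below, and the smallest unadjusted p of the overdispersion model was 0.191.

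**Figure D3:**
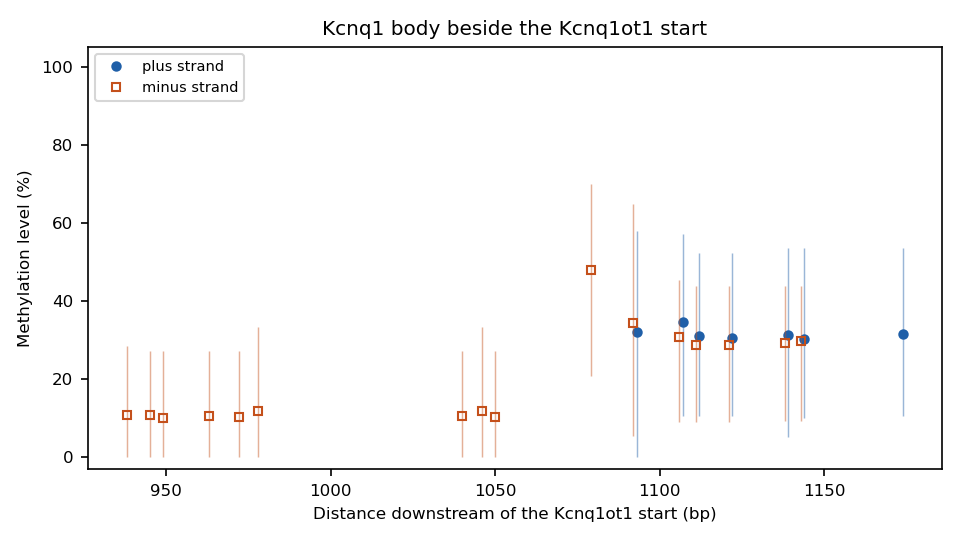
Methylation level (%) of single CpG rows of the Kcnq1 body against distance (bp) downstream of the Kcnq1ot1 start, with the mean of 12 libraries as filled circles (plus strand) or open squares (minus strand) and the lowest to highest library as thin lines. Row means lie between 10.1 and 48.0%, and single libraries spread widely around them.

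Mean levels over Kcn rows did not separate Tg from Wt. Over the 5024 complete promoter rows the 4 Wt libraries had 2.33, 1.89, 2.22 and 2.07%, and the 8 Tg libraries lay between 2.0 and 2.26%. Wt averaged 2.13% ± 0.189 and Tg 2.12% ± 0.0773 (SD over 4 and 8 libraries), and without the library labelled Wt male the Wt mean was 2.15%. Over the 1062 complete body rows the Wt libraries had 24.1, 22.1, 22.3 and 22.0%, and the Tg libraries lay between 21.9 and 23.4%. The means were 22.6% ± 0.969 in Wt, 22.8% without the library labelled Wt male, and 22.6% ± 0.570 in Tg. Over all protein-coding genes they were 1.43 and 1.44% in promoters and 18.7 and 19% in bodies.

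Genotypes were then compared gene by gene, with reads summed over the complete rows of a promoter or a body and sex as covariate. A binomial model takes all reads as independent, and an overdispersion model sets the difference against the spread between animals where that exceeds counting error. A region was called at an adjusted p under 0.1 and a difference of at least 10 percentage points. Of 69 Kcn promoters, 0 were called in the binomial model, where 0.155% of all promoters were, and of 45 Kcn bodies 0 were called, where 3.41% of all bodies were. With 1 library left out at a time, the binomial model called up to 1 Kcn promoter and up to 2 Kcn bodies, the latter without Wt female 1. Over promoters and bodies of all genes together it called 226 of 18958 with all libraries. Among the fits with 1 library left out, that count too was highest without Wt female 1. At any size of difference, 38 Kcn promoters and 24 Kcn bodies had an adjusted binomial p under 0.1, beside 49.1% and 49.6% of the regions of all genes. The overdispersion model called 0 of both, beside 0% of all regions. At an unadjusted p under 0.05 it had 3 promoters, beside 6.06% of all promoters, and 4 bodies, beside 5.69% of all bodies, and its smallest adjusted p was 0.798 in promoters and 0.781 in bodies. No Kcn region had Wt and Tg ranges apart, beside 0.294% of all promoters and 0.281% of all bodies. The difference was under 1 point in 58 of 69 promoters and under 5 points in 38 of 45 bodies, as the plot of Tg against Wt levels shows.

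**Figure D4:**
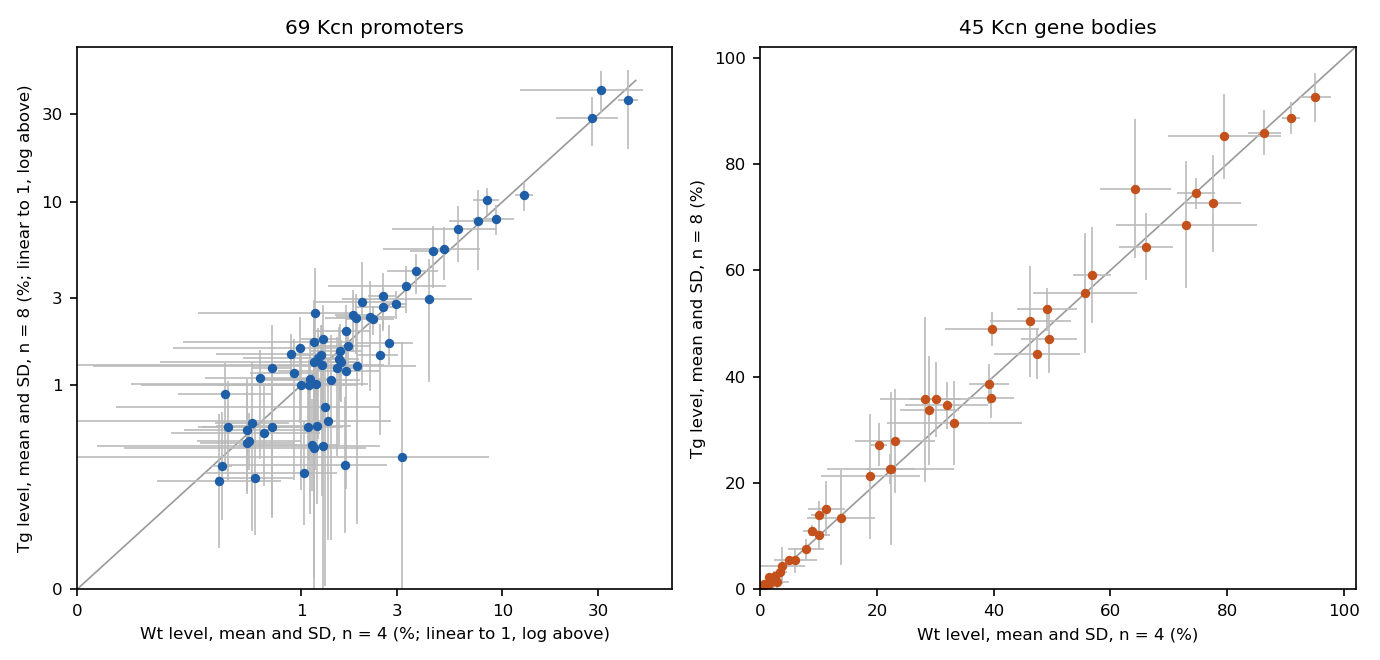
Read-weighted methylation level (%) of each Kcn promoter (left, axes linear to 1 and logarithmic above) and gene body (right, linear axes) in Tg against Wt, with points at the means of 8 and 4 libraries, bars for 1 SD and a line where both are equal. No region had ranges apart, and 58 of 69 promoters and 38 of 45 bodies lay within 1 and 5 points of equality.

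Of the 5 bodies with the smallest overdispersion p, 4 are given, and these had higher levels in Tg. They were picked by that p, so the tests describe these regions and are not independent of the choice. Two-sided exact permutation tests of the group means over all 495 assignments of 4 and 8 group labels, without the sex covariate, were added after the data had been seen. They tested the difference between means of library levels, not the pooled difference printed beside each p. The tested differences were 6.83 points in Kcnj6, 9.29 in Kcnh1, 2.18 in Kcns1 and 5.61 in Kcnd3. Kcnj6 led with 22 rows, where Wt libraries had 20.1, 22.3, 20.1 and 18.9% and Tg libraries 19.9% at the lowest, 26.8% in the median and 33.4% at the highest. All but 1 of the Tg libraries stood above the highest Wt library, and the ranges overlapped only through that one. With reads pooled, Tg was 6.68 points higher (exact permutation p = 0.0202, or 0.0545 when the library labelled Wt male is left out), at an adjusted p of 0.781 in the overdispersion model.

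In Kcnh1, which encodes an EAG channel, the Wt libraries had 49.9, 34.7, 42.1 and 32% over 14 rows. The Tg libraries had 44.2, 50 and 52.1% at the lowest, the median and the highest. Wt female 1 lay inside the Tg range and the other 3 below it. The pooled difference was 8.39 points (exact permutation p = 0.0141, or 0.0424 when the library labelled Wt male is left out), with an adjusted p of 0.798 in the overdispersion model. Without that library it was 5.31 points, over rows covered in at least 9 libraries 3.15 points, and with each row weighted equally it turned to -1.21 points.

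In Kcns1, a silent subunit, the 120 rows had 8.53, 7.41, 10.9 and 8.36% in Wt and from 8.97% through 10.8% to 12.4% in Tg. The difference was 2.02 points (exact permutation p = 0.0121, or 0.0364 when the library labelled Wt male is left out), and 4 of 8 Tg libraries stood above all Wt. With each row weighted equally the Kcns1 difference was 0.0258 points. Kcnd3, an A-type subunit, had 6.72 points (exact permutation p = 0.180, or 0.394 when that library is left out), but 1.97 points with each row weighted equally and 2.65 over rows covered in at least 9 libraries. Adjusted p of the overdispersion model were 0.798 in Kcns1 and 0.842 in Kcnd3. Unadjusted p of that model were 0.00618 in Kcnj6, 0.0155 in Kcnh1, 0.0241 in Kcns1 and 0.0529 in Kcnd3. When the library labelled Wt male is left out, the same model gave 0.0467, 0.137, 0.0708 and 0.145. The ranges overlapped in all 4.

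In the 5 promoters picked the same way the differences were small and mostly downward. The differences of mean library levels that the permutation tests used were -1.05 points in Kcnk2, -1.04 in Kcna7 and -0.246 in Kcnj2. They were -1.01 in Kcnj3 and 0.527 in Kcna1. Kcnk2, a mechanically gated K2P channel, had 1.24, 0.673, 3.04 and 1.67% in Wt and 0% at the lowest, 0.678% in the median and 1.12% at the highest in Tg. The pooled change was -1.14 points (exact permutation p = 0.0121, or 0.0364 when the library labelled Wt male is left out), with an adjusted p of 0.798 in the overdispersion model. Without Wt female 3, the highest Wt library, it was -0.554 points. Kcna7, known from muscle, had 3.93, 2.82, 2.23 and 2.02% in Wt and 0.977, 1.90 and 2.04% at the lowest, the median and the highest in Tg. The Kcna7 ranges met at their edges, since only the lowest Wt value lay inside the Tg range. The change was -1.02 points with reads pooled (exact permutation p = 0.00404, or 0.00606 when the library labelled Wt male is left out), with an adjusted p of 0.805 in the overdispersion model. Without Wt female 1, again the highest, it was -0.565 points.

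The remaining promoters differed by less. Kcnj2, an inward rectifier of muscle and brain, differed by -0.167 points (exact permutation p = 0.135, or 0.285 when the library labelled Wt male is left out), and by -0.302 points with each row weighted equally. Kcnj3, which pairs with Kcnj6 in G-protein-gated channels, differed by -0.940 points (exact permutation p = 0.0364, or 0.0485 when that library is left out), and 7 of 8 Tg libraries stood below all Wt. Kcna1 differed by 0.479 points (exact permutation p = 0.0687, or 0.0667 when that library is left out), but by -0.0612 points when rows covered in at least 9 libraries were summed. Adjusted p of the overdispersion model were 0.836, 0.840 and 0.842. Wt and Tg ranges overlapped in each of them. In the order Kcnk2, Kcna7, Kcnj2, Kcnj3 and Kcna1, unadjusted p of the overdispersion model were 0.0143, 0.0254, 0.0462, 0.0509 and 0.0543. When the library labelled Wt male is left out, the same model gave 0.0331, 0.00841, 0.0366, 0.0688 and 0.0463.

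Among single rows the outcome depended on the model. Of 7359 tested promoter rows the binomial model called 63 (0.856%, beside 0.588% of the promoter rows of all genes), 26 of them higher in Tg (beside 0.299%) and 37 lower (beside 0.289%). Of 2645 tested body rows it called 284 (10.7%, beside 10.2% of all body rows), 150 higher (beside 6.19%) and 134 lower (beside 3.98%). Without the library labelled Wt male the counts were 74 and 240, and without Wt female 3 the binomial model called 100 promoter rows. Of all 1613536 autosomal rows it called 60767 with all libraries, 53347 without the library labelled Wt male and 66731 without Wt female 3. Without the library labelled Wt male no labelled male is left in Wt. The genotype effect then rests on the libraries labelled female, while the difference still pools all 8 Tg libraries. The overdispersion model called 0 Kcn rows, as it called 0 of all autosomal rows, and its smallest adjusted p among Kcn rows was 0.509. At an unadjusted p under 0.05 it had 817 promoter rows (11.1%, beside 10.3%) and 183 body rows (6.92%, beside 7.74%). The median dispersion, where 1 is binomial sampling alone, was 3.09 in called promoter rows, beside 1.01 over all tested Kcn promoter rows and 1 over promoter rows of all genes. In called body rows it was 3.40, beside 2.61 over all tested Kcn body rows and 2.57 over body rows of all genes. Most deposited counts were even numbers (66.6 to 80.8% of Kcn coverages in each library), and with all counts divided by 2 the binomial model called 5 of the 7359 promoter rows (beside 0.0469% of all promoter rows) and 19 of the 2645 body rows (beside 0.716% of all body rows). Whether both mates of a read pair were counted was not tested.

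In Kcnq1, 35 of 158 tested body rows were called, 23 of them lower in Tg, and Kcnab2, which encodes a cytosolic partner of Kv1 pores, had 18 of 103, with 9 in each direction. Kcng4 had 16 of 89, 15 of them lower, and Kcnk4, a mechanically gated K2P channel, 12 of 103. The called share ran from 22.2% in Kcnq1 to 11.7% in Kcnk4. Among body rows of all protein-coding genes it was 10.2%, with 6.19% higher and 3.98% lower in Tg. These genes were chosen, after the values were seen, for having the most called body rows. Whether their shares exceed that of all genes was not tested. Neighbouring rows share reads and are not independent. Of the 347 called rows, 177 had the opposite strand of the same CpG tested, which differed in the same direction in 111 (62.7%) and was called as well in 38, of which 28 went the same way.

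Called rows formed some groups, taken as at least 5 with gaps of at most 100 bp. In an intron of Kcnq1, chr7:143380612-143380694, all 9 rows were called lower in Tg. Read-weighted levels were 52.9, 37.8, 55.6 and 75.9% in Wt, and 21.4% at the lowest, 35.7% in the median and 76.6% at the highest in Tg, so the Tg range enclosed the Wt range. In a coding exon of Kcng4, chr8:119633112-119633152, 6 of 8 rows were called lower. Wt had 56.5, 30.1, 45.6 and 58.0% and Tg 15.7, 35.0 and 47.6% at the lowest, the median and the highest. In an intron of Kcnj6, chr16:94852826-94852999, 6 of 14 rows were called higher, with 39.4, 39.9, 35.7 and 28.7% in Wt and 35.5, 44.1 and 52.3% in Tg. Ranges overlapped in each of these groups.

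Wt and Tg ranges did not overlap at 9 promoter rows (0.122%, beside 0.0679% of promoter rows of all genes) and 14 body rows (0.529%, beside 0.446%). Both this and a binomial call applied to 16 Kcn rows, and 8 of the 10 with the smallest overdispersion p, 1 within any 1000 bp, are plotted by library. Having been chosen for their separation, they are given as a description. Each of 5 is shown with 20 bases on either side (GRCm38.p6, on the strand of the row, 5′ to 3′, the CpG of the row in capitals).
Kcnj6, coding exon, chr16:94762579-94762620, minus strand: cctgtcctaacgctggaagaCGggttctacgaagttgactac
Kcnma1, coding exon at the start, chr14:24003861-24003902, plus strand: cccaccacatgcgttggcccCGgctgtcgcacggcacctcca
Kcnn3, intron, chr3:89580151-89580192, plus strand: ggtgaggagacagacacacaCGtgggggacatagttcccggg
Kcnk18, intron within 1000 bp of the start, chr19:59220121-59220162, minus strand: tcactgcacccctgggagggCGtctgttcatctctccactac
Kcnk4, coding exon, chr19:6927099-6927140, plus strand: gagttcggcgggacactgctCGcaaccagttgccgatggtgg

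**Figure D5:**
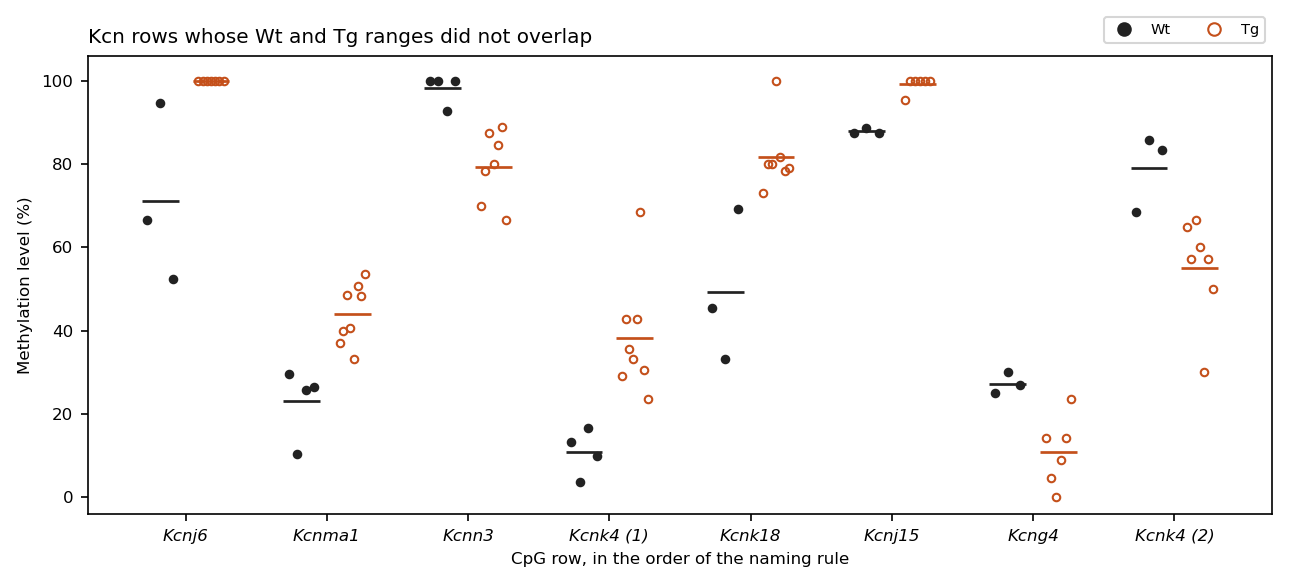
Methylation level (%) of 8 Kcn CpG rows in each library with at least 10 reads, in the order of the naming rule, with Wt as filled and Tg as open circles and the group means as short lines; (1) and (2) mark separate rows of Kcnk4. Levels are higher in Tg at 5 rows and lower at 3, and no row has overlapping ranges, which is how the rows were chosen.

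At the Kcnj6 row (position 94762600) the Wt libraries had 66.7% in female 1, 94.6% in female 3 and, in the one labelled male, 52.4%. In Tg, all 7 covered libraries had 100%. On the opposite strand of this CpG the means were 96.5% in Wt and 96.2% in Tg. At the Kcnma1 row (24003881) Wt had 29.5, 10.3, 25.8 and 26.5% and Tg 33.3% at the lowest, 44.6% in the median and 53.7% at the highest. The opposite strand had 0% in every Wt library and a mean of 5.74% in Tg. At the Kcnk18 row (59220142) Wt had 45.5, 33.3 and 69.2% and Tg from 73.1% through 80% to 100%, but the opposite strand averaged 87.2% in Wt and 82.9% in Tg. The opposite strands of these CpGs thus did not show a difference of that size.

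Lower levels in Tg were found at the Kcnn3 row (89580171), with 100, 100, 92.9 and 100% in Wt and 66.7, 80 and 88.9% at the lowest, the median and the highest in Tg. Kcnk4 had rows in both directions. At 6925989 Wt had 13.3, 3.70, 16.7 and 10% and Tg from 23.5% through 34.5% to 68.4%, and at 6927119 Wt had 68.4, 85.7 and 83.3% and Tg from 30% through 57.1% to 66.7%. The Kcnj15 row (95296633), in a coding exon, had 87.5, 88.6 and 87.5% in Wt and 100% in 5 of 6 covered Tg libraries, with 97.3 and 98.3% on the opposite strand. At the Kcng4 row (119633300), in its coding exon, Wt had 25, 30 and 26.9% and Tg from 0% through 11.7% to 23.5%, with 34.1 and 32.2% on the opposite strand. Unadjusted p of the overdispersion model ran from 0.000415 in Kcnj6 to 0.0327 at the latter Kcnk4 row, with adjusted p from 0.509 to 0.522. At the Kcnj6, Kcnk18, Kcnj15 and Kcng4 rows the dispersion was 1, so their p rests on binomial sampling of reads. With all counts divided by 2, 2 of the 8 rows were still called. Without the library labelled Wt male 6 of them were.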

How the data were processed

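Per the labels and the study's methods, a commercial service made the RRBS libraries and sequenced them as read pairs (Illumina HiSeq 2000), and reads were aligned to mm10 with Bismark and read into methylKit in CpG context (versions not given in the sources used here). The authors deposited read counts per cytosine (coverage, methylated C and converted T), with strands apart, 1 file per animal and no pooling. No file listed a cytosine with under 10 reads. Row totals per library of 33619981 to 131446104 reads set the counting error only, and animals of a group often differed by more. A table of the sites called by the authors was not used.

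Rows were joined over the 12 libraries and assigned to Kcn genes with GENCODE vM21 basic. The members, the gene lists and the tests were chosen with earlier results of these data known. Genotype was tested at 1613536 autosomal rows covered in at least 3 Wt and 6 Tg libraries. The covariate was the labelled sex, also for the library labelled Wt male. The tests were a binomial logistic model with a likelihood-ratio test, and the same deviance divided by a dispersion per row, never below 1, with an F test. Adjustment (Benjamini-Hochberg) ran over all rows, or over all 18958 promoters and bodies with at least 3 complete rows. The labels do not give replicate numbers, so numbers only name libraries. A p of a permutation test sets a difference against the spread between these animals. So does a p of the overdispersion model where the dispersion exceeds 1. At a dispersion of 1, as in the Kcnj2 promoter, the latter rests on binomial sampling of reads. A binomial p takes reads as independent and does not measure that spread.

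Named were the 10 highest promoters, the 8 highest and 6 lowest bodies, up to 10 called rows (ranges apart first, then smallest overdispersion p, 1 within any 1000 bp), the 5 promoters and 5 bodies of smallest overdispersion p, the 4 promoters and 4 bodies of largest SD, and a list of well known genes (Kcna1, Kcna2, Kcna6, Kcnc1, Kcnd2, Kcnj6, Kcnj10, Kcnk9, Kcnma1, Kcnn2, Kcnq1 and Kcnq3). Some genes and rows that these rules chose are not reported here. Groups of called rows and genes with the most called rows were chosen after their values were seen. Alternatives varied the read minimum, the libraries required, the covariate, the strands, the thresholds, the promoter, the weighting and the model (limma 3.58.1 in R 4.3.3), and left out each library in turn. Counts divided by 2, the exact permutation tests of regions and the regional differences in the 7 libraries labelled female were added after the data were seen. Computation used Python 3.11.15, numpy 2.4.6, pandas 2.3.3, scipy 1.17.1 and matplotlib 3.10.9.

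Both models were tested on simulated data of 20000 rows, 200 of them shifted. With binomial noise alone and a shift of 30 points the binomial model called 97.5% of shifted rows and 3 others, and the overdispersion model 81% and 0 others. With spread between animals added, the binomial model called 97.5% and 1053 others, and the overdispersion model 28.5% and 9 others. At a shift of 50 points the overdispersion model then called 74% and 16 others. With the 30-point shift it gave 8.02% of unshifted rows an unadjusted p under 0.05, and the binomial model 26.3%. The added spread was a fixed setting not fitted to the Kcn rows, so these shares do not give the power in these data.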

Additional observations from a re-analysis of the deposited data

Results flagged for a closer look

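Of 119 groups of 4 to 8 libraries checked, 18 (15.1%) held a library whose gap to the nearest other exceeded the 95% limit of Dixon's test, which chance alone exceeds in about 1 of 20. Wt female 1 gave 6 of these, Tg female 1 3, Wt female 3, the library labelled Wt male and Tg female 2 2 each, and Tg female 3, Tg male 1 and Tg male 2 1 each.

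Among promoters, Tg female 3 stood at 48.8% in Kcna5 (next 30.2%) and Tg female 2 at 5.67% in Kcna6 (next 3.83%). In Kcng4, Wt female 1 had 11.3% (next 1.35%) and Tg female 1 3.01% (next 1.3%), over 3 rows with 43 to 223 reads a library. Wt female 1 also stood high in Kcnj3, at 3.30% (next 2.24%), and in Kcnma1, at 1.85% (next 0.756%).

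Among bodies, Kcnk13 had 1.28% in Wt female 1 (next 0.469%) and 2.58% in Tg female 2 (next 1.20%), and Kcnn2 had 2.79% in Tg female 1 (next 1.22%). In Kv7 genes, Wt female 1 had 45.5% in Kcnq1 (next 37.7%) and Wt female 3 88.6% in Kcnq3 (next 91.5%). The mean over all complete Kcn body rows was 24.1% in Wt female 1 (next 22.3%). In the Kcnq1 rows near the Kcnq1ot1 start, the library labelled Wt male had 16.7% (next 27.1%), and 8.10% on the minus strand alone (next 23.9%).

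Among single rows, Wt female 3 had 92.9% at Kcnn3 89580171, where the other Wt libraries had 100%. Tg male 2 had 68.4% at Kcnk4 6925989 (next 42.9%), Tg male 1 100% at Kcnk18 59220142 (next 81.8%) and Tg female 1 95.3% at Kcnj15 95296633, where the other Tg libraries had 100%.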

How the results depend on the processing

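The overdispersion model called 0 Kcn rows and 0 Kcn regions in the main analysis and in every alternative run for it, as did limma. Binomial counts moved. Called promoter rows (63 in the main analysis) numbered 29 at a minimum of 20 reads, 34 over rows covered in all 12 libraries, 33 with strands summed, 122 in the 7 libraries labelled female, 3 at a difference of 25 points and 5 with counts divided by 2. They ranged from 61 to 100 with each library left out, the highest without Wt female 3. Called body rows (284) numbered 60, 64, 41 and 19 at 20 reads, in all 12 libraries, at 25 points and with counts divided by 2, and ranged from 240 to 341 with each library left out. Over all autosomal rows the main analysis called 60767 of 1613536. The count was 14360 of 1045079 at 20 reads, 14382 of 970775 in all 12 libraries and 43995 of 1019960 with strands summed. It was 66452 of 1549822 in the 7 libraries labelled female, 6269 at 25 points and 4273 with counts divided by 2. Called promoters (0) became 2 at a difference of 5 points and ranged from 0 to 1 with each library left out, with 1 without each of Wt female 1, Wt female 3, Tg female 1, Tg female 3 and Tg male 2. Called bodies (0) became 3 with at least 1 row per region, 3 in the 7 libraries labelled female and 6 at 5 points, and ranged from 0 to 2, with 2 without Wt female 1 and 1 without the library labelled Wt male or Tg male 2. Over promoters and bodies of all genes together the main analysis called 226 of 18958. The count was 1040 at 5 points, 535 of 21270 with at least 1 row per region and 443 in the 7 libraries labelled female. With each library left out it was highest without Wt female 1, and it fell only without Tg female 1, to 217. Fewer rows are tested under the stricter coverage, and the cause of the other changes was not tested.

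Mean promoter levels became 2.79% in Wt and 2.73% in Tg over rows covered in at least 9 libraries, 1.57 and 1.51% at 20 reads, 1.69 and 1.63% with the upstream part alone, and 1.88 and 1.84% read-weighted. Mean body levels in the same order became 38.8 and 37.7%, 6.35 and 6.32%, 6.70 and 6.69%, and 16.3 and 17.4%. In the third of these settings the rows around transcript starts inside a gene counted as body rows, so the set of body rows differed. The coverage required moved these means by more than Wt and Tg differed. The difference of the Kcna1 promoter reversed to -0.0612 points over rows covered in at least 9 libraries, and that of the Kcnh1 body to -1.21 points with rows weighted equally. With rows weighted equally the Kcns1 body differed by 0.0258 points, the Kcnd3 body by 1.97 and the Kcnj2 promoter by -0.302. On the opposite strand, the row difference reversed to -1.27 points at Kcnk18. Regional differences kept their direction in 108 of 108 fits that left out 1 library, but that of the Kcnk2 promoter fell to -0.554 points without Wt female 3, that of Kcna7 to -0.565 without Wt female 1, and that of the Kcnh1 body to 5.31 without the library labelled Wt male. Calls at the 8 named rows held in 91 of 96 such fits, the exceptions being in Kcnj15, Kcng4 and Kcnk4, and in 2 of 8 rows with counts divided by 2. No paired analysis was made, because each library came from a separate animal and the labels give no pairs. The median Kcn row had 20 reads in the shallowest library, which limits what single rows can show.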

Other observations

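Further groups of called Kcn rows, chosen after their values were seen, lay in other genes. In an intron of Kcnab2, chr4:152414416-152414495, 5 of 6 rows were called lower in Tg, with 95, 84.1 and 84.8% in the 3 covered Wt libraries and 59.5% at the lowest, 68.4% in the median and 94.1% at the highest in 7 Tg libraries. In another Kcnab2 intron stretch, chr4:152400513-152400693, 8 of 10 rows were called, 6 of them higher. Wt had 77.9, 30.9, 35.9 and 45.7%, and Tg ran from 40% through 49.4% to 68.3%. In the coding exon of Kcna6, chr6:126739284-126739396, 5 of 15 rows were called lower. There the Wt libraries ranged from 1.1 to 22.6% and the Tg libraries from 7.61 to 12.6%. In the coding exon of Kcnj14, chr7:45819832-45819938, 5 of 10 rows were called, 4 of them higher. Wt had 13.7, 10.3 and 17.0%, and Tg ran from 6.75% through 21.4% to 34.8%. Ranges overlapped in each.

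The strands of a CpG mostly stood at the same level. Over 1993 Kcn CpGs with both strands covered in all 12 libraries, the median absolute difference of their means was 0.666 points, and the 95th percentile 3.21 points.

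Astrocyte marker promoters (3 of 4 genes with rows) had 11.5% ± 2.50 in Wt and 11.7% ± 3.36 in Tg (SD over 4 and 8 libraries), and microglia marker bodies (2 of 4 genes) 10.4% ± 6.32 and 12.9% ± 4.54, with overlapping ranges. Astrocyte marker bodies (2 of 4 genes, 7 rows) had 37.3% ± 6.7 in Wt and 40.8% ± 7.0 in Tg, also with overlapping ranges.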
